A study of Mus musculus with 11 samples.

Results

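The glutathione S-transferases followed here are 9 genes expressed in mouse liver, chosen by their Ensembl gene identifiers from a table of 22019 genes: the alpha-class genes Gsta2 (ENSMUSG00000057933), Gsta3 (ENSMUSG00000025934) and Gsta4 (ENSMUSG00000032348), the mu-class genes Gstm1 (ENSMUSG00000058135) and Gstm2 (ENSMUSG00000040562), the pi-class gene Gstp1 (ENSMUSG00000060803), the theta-class gene Gstt1 (ENSMUSG00000001663), the kappa-class gene Gstk1 (ENSMUSG00000029864) and the microsomal gene Mgst1 (ENSMUSG00000008540). All 9 were present in the table. The study compared livers from a high-fat, high-sugar (HFHS) diet with livers from a chow diet, both taken from WT males, and its title concerns translation, reactive oxygen species and the kinase ZAK in obesity and ageing. In each liver sample, RNase I-protected fragments of about 60 nt, left by ribosomes packed against each other (disome footprints, a measure of ribosome collision or queueing), or of about 30 nt, left by single ribosomes (monosome footprints, a measure of ribosome occupancy), were sequenced. The libraries comprised 2 HFHS and 3 chow disome samples and 3 HFHS and 3 chow monosome samples. No source used here gives the age of the mice or the length of the diet.

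Glutathione S-transferases join the tripeptide glutathione to electrophilic compounds, which makes these more soluble and prepares them for export from the cell. The cytosolic classes (alpha, mu, pi and theta) are soluble enzymes, the kappa class lies in mitochondria and peroxisomes, and the microsomal enzymes are unrelated membrane proteins. In liver they are abundant enzymes of drug and toxin disposal, and several of them are induced through the transcription factor NRF2, which binds antioxidant response elements. They also act on products of lipid peroxidation.

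Levels are in CPM, edgeR's counts scaled to depth, after TMM over all 11 libraries. Libraries are named by the sample barcode in their column name, and values are listed in a fixed order. For HFHS this is CTAGA, then GATCA (monosomes only), then GCATA. For chow it is AGCTA, then ATCGT, then CGTAA. CPM values are not corrected for gene length, so levels are compared between samples and not between genes. Fold changes came from edgeR's quasi-likelihood test on the whole table, with Benjamini-Hochberg adjustment over all genes tested. A gene is called at an adjusted p below 0.05, and the error of a log2 fold change is its standard error (SE). Library totals were 235748 and 238837 counts in HFHS disomes, 147212 to 279331 in chow disomes, 1196240 to 1612324 in HFHS monosomes and 795145 to 1248781 in chow monosomes. The chow libraries with the barcode AGCTA stood apart from the rest of their groups, with correlations of log2(CPM + 1) of 0.79 and 0.80 to the other chow disome libraries, against 0.96 between those, and of 0.82 and 0.83 to the other chow monosome libraries, against 0.98 between those. A set of 29 genes in the AGCTA disome library and of 30 genes in the AGCTA monosome library exceeded 20 CPM and stood over 8 times above every other library of the class (a rule chosen with the values known), and 0 of the 9 transferase genes were among them. The deposited table does not pair identifiers with names, so hepatocyte and other cell type markers were not analysed here.

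The diet comparison in monosome footprints asked which transferases were occupied by more or fewer ribosomes in HFHS livers. Of the members, 3 fell and 1 rose: Gstp1, Gsta4 and Gstm1 were lower in HFHS livers, and Gstk1 was higher. Of the 9 genes, 8 passed the filter on low counts, and 4 of these were called, where 4.65% of all 6754 genes tested were called, 1.63% lower and 3.02% higher. HFHS and chow values did not overlap for 4 of the 9 genes, and for 21.6% of all genes tested. The median log2 fold change of the 8 members was -0.03, beside -0.02 over all genes tested, with members on both sides of 0. These are bulk livers without a matched measure of mRNA, and fewer cells of a type and less RNA per cell cannot be told apart in them. An altered mRNA level and an altered number of ribosomes on each mRNA cannot be told apart either.

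Gstp1, the pi-class enzyme, which is abundant in the liver of male mice, fell most among the members. Its monosome level was 472, 467 and 731 CPM in the HFHS libraries, against 1760.4, 1749 and 1970.5 CPM in the chow libraries. The groups did not overlap, and the highest HFHS value, in GCATA, lay far below the lowest chow value. The means were 557 ± 151 CPM in HFHS and 1827 ± 125 CPM in chow (SD, n = 3 each). Gstp1 was therefore 3.24-fold lower in HFHS, a log2 fold change of -1.70 ± 0.15 (edgeR, adjusted p = 1.90e-07). Only 0.267% of the genes tested had a lower log2 fold change.

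Gstp1 disome footprints fell as well. They stood at 1052 and 2067 CPM in the HFHS libraries, against 3213, 4383 and 4503 CPM in the chow libraries. The groups again did not overlap, and the HFHS library GCATA was the higher of its group in disomes as in monosomes. The fitted disome change was 2.73-fold lower in HFHS, a log2 fold change of -1.45 ± 0.18 (adjusted p = 2.47e-13). It was -1.03 without the HFHS disome library CTAGA and -1.99 without GCATA. Each of these fits sets 1 HFHS library against 3 chow libraries, so the spread comes from chow alone and the lone library is assumed to vary like it. With all 11 libraries in 1 fit, the disome change of -1.37 missed the threshold (adjusted p = 0.166).

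Gstm1, a mu-class enzyme that conjugates a wide range of electrophiles, fell in both footprint classes. In monosomes it had 792, 778 and 623 CPM in the HFHS libraries, against 1129.55, 1461 and 1112 CPM in the chow libraries. In disomes it had 2038 and 2013 CPM in HFHS, against 3110.5, 3648 and 3086 CPM in chow. HFHS and chow did not overlap in either class, and the HFHS disome libraries lay close to each other. The log2 fold change was -0.74 ± 0.14 in monosomes (adjusted p = 0.000835) and -0.77 ± 0.17 in disomes (adjusted p = 0.000719), close to 1.67-fold and 1.70-fold lower in HFHS.

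Gsta4, an alpha-class enzyme with high activity toward 4-hydroxynonenal, a product of lipid peroxidation, fell in monosomes. Its monosome level was 83.8, 56.9 and 62.6 CPM in the HFHS libraries, against 112, 149 and 118 CPM in the chow libraries. The groups did not overlap, and the log2 fold change was -0.89 ± 0.17 (adjusted p = 0.00165). In disomes Gsta4 had 111 and 151 CPM in HFHS, against 186, 279.7 and 165 CPM in chow. These groups did not overlap either, but the disome log2 fold change of -0.75 ± 0.26 missed the threshold (adjusted p = 0.0863).

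Gstk1, the kappa-class enzyme, also known as DsbA-L, rose in monosomes. It had 251, 306 and 224 CPM in the HFHS libraries, against 167, 188 and 139 CPM in the chow libraries. All HFHS values lay above all chow values, and the log2 fold change was 0.67 ± 0.16 (adjusted p = 0.00992), 1.59-fold higher in HFHS. The call was lost when the chow library CGTAA was left out (0.55, adjusted p = 0.112) and when the HFHS library GATCA was left out (0.55, adjusted p = 0.0606). In disomes it had 304 and 239 CPM in HFHS, against 179.6, 204 and 152 CPM in chow, with a log2 fold change of 0.55 ± 0.22 that was not called (adjusted p = 0.206).

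The calls in monosomes and disomes were also made without the AGCTA libraries. In monosomes the log2 fold changes were then -1.72 for Gstp1, -0.80 for Gstm1, -0.97 for Gsta4 and 0.68 for Gstk1 (adjusted p = 2.05e-06, 0.00155, 0.00335 and 0.0315). In disomes they were -1.57 for Gstp1 and -0.79 for Gstm1 (adjusted p = 3.20e-05 and 0.0140).

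**Figure D1:**
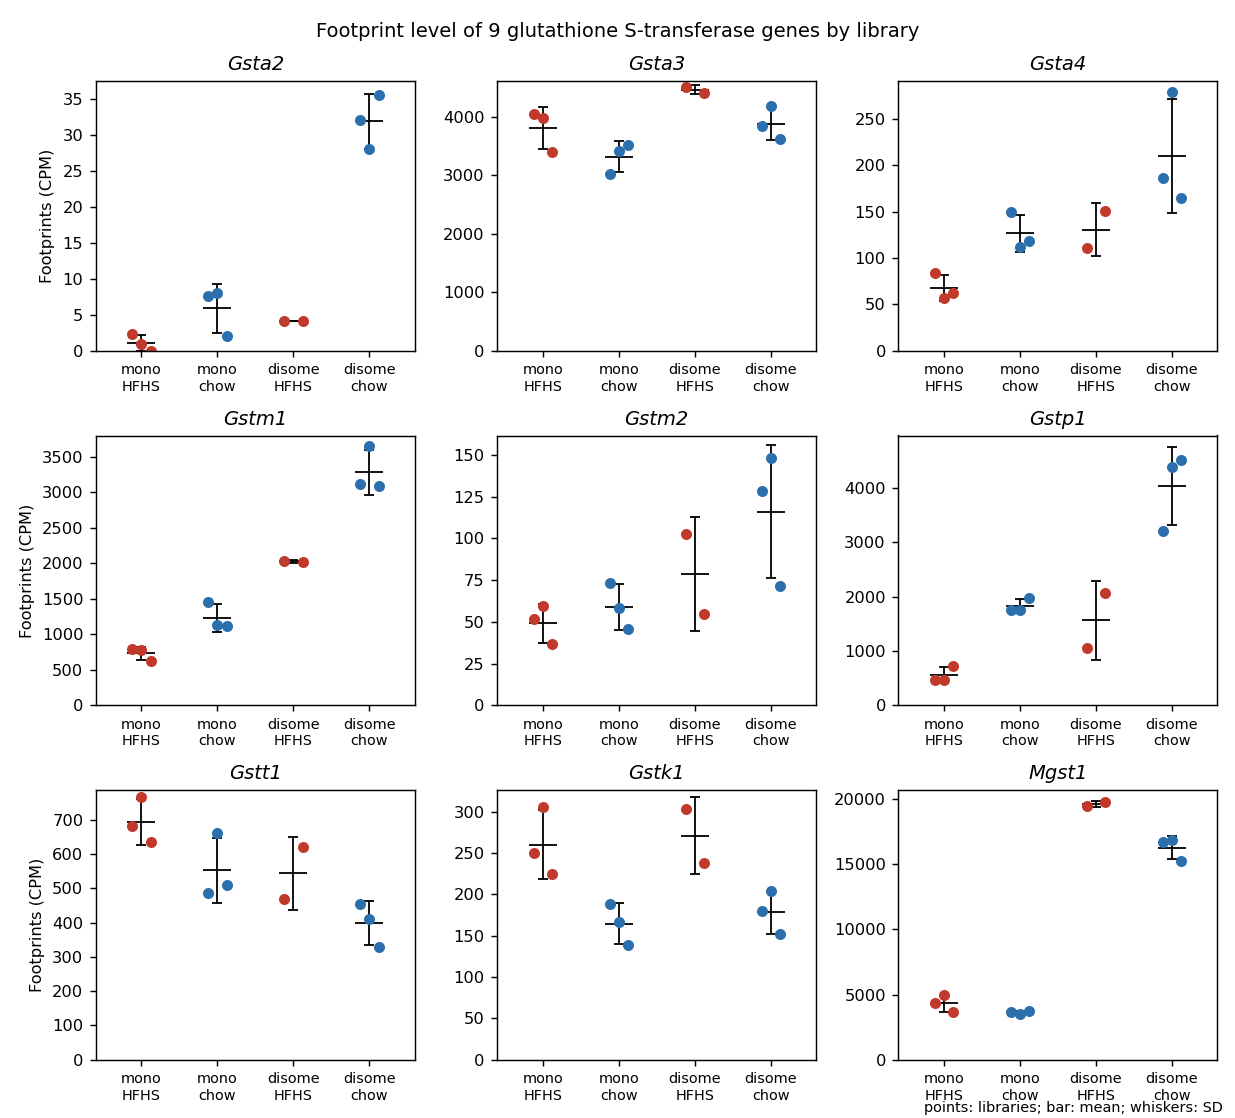
Footprint level in CPM (vertical axes, linear and starting at 0, a scale of its own for each gene) of the 9 genes in each library, for monosomes and disomes in HFHS (red) and chow (blue) livers; points are libraries, horizontal bars are means and whiskers are SD (n = 3, and n = 2 for HFHS disomes). Gstp1 and Gstm1 lie lower in HFHS in both footprint classes, and Mgst1 lies far higher in disomes than in monosomes on both diets.

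The other 4 members tested in monosomes did not pass the threshold. Mgst1, the membrane-bound enzyme of the endoplasmic reticulum and outer mitochondrial membrane, averaged 4326 ± 658 CPM in HFHS and 3637 ± 134 CPM in chow (SD, n = 3 each), with a log2 fold change of 0.26 ± 0.10 (adjusted p = 0.162). It crossed the threshold when the HFHS library GCATA, its lowest HFHS library at 3651 CPM, was left out (log2 fold change 0.38, adjusted p = 0.0212). Gsta3, the enzyme that detoxifies the epoxide of aflatoxin in mice, averaged 3813 ± 361 CPM in HFHS and 3317 ± 267 CPM in chow, a log2 fold change of 0.22 ± 0.10 (adjusted p = 0.263). Gstt1, the theta-class enzyme, averaged 694 ± 66.3 CPM in HFHS and 553 ± 95.2 CPM in chow, a log2 fold change of 0.34 ± 0.14 (adjusted p = 0.179). Gstm2, a second mu-class enzyme, averaged 49.2 ± 11.6 CPM in HFHS and 58.8 ± 13.7 CPM in chow, a log2 fold change of -0.27 ± 0.21 (adjusted p = 0.563). HFHS and chow overlapped for each of these 4 genes. Gstm1 and Gstm2 are neighbours in the mu-class cluster, and whether their log2 fold changes differed from each other was not tested.

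The same question in disomes gave 2 calls among the 8 members tested, both lower (Gstp1 and Gstm1), where 2.96% of 2804 genes were called, 1.14% of them lower and 1.82% higher. The median log2 fold change of the 8 members was -0.22, beside -0.03 over all genes tested. Among the members that were not called, HFHS disome values lay wholly above chow for Gsta3, Gstt1, Gstk1 and Mgst1. Their log2 fold changes were 0.13 ± 0.16, 0.39 ± 0.20, 0.55 ± 0.22 and 0.20 ± 0.15, with adjusted p from 0.206 to 0.819. With 2 libraries against 3, 29.3% of all genes tested had groups that did not overlap, so separation alone is common in this comparison. Of the 9 members, 4 lay wholly above chow, 4 lay wholly below it and 1 overlapped. Gsta2, among those below, was not tested. Gstm2 had 103 and 54.4 CPM in HFHS, against 128, 148 and 71.2 CPM in chow. Its groups overlapped, and its log2 fold change was -0.57 ± 0.33 (adjusted p = 0.456). When CTAGA was left out of the HFHS libraries the value was -1.12, and when GCATA was left out it was -0.20, uncalled each time.

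**Figure D2:**
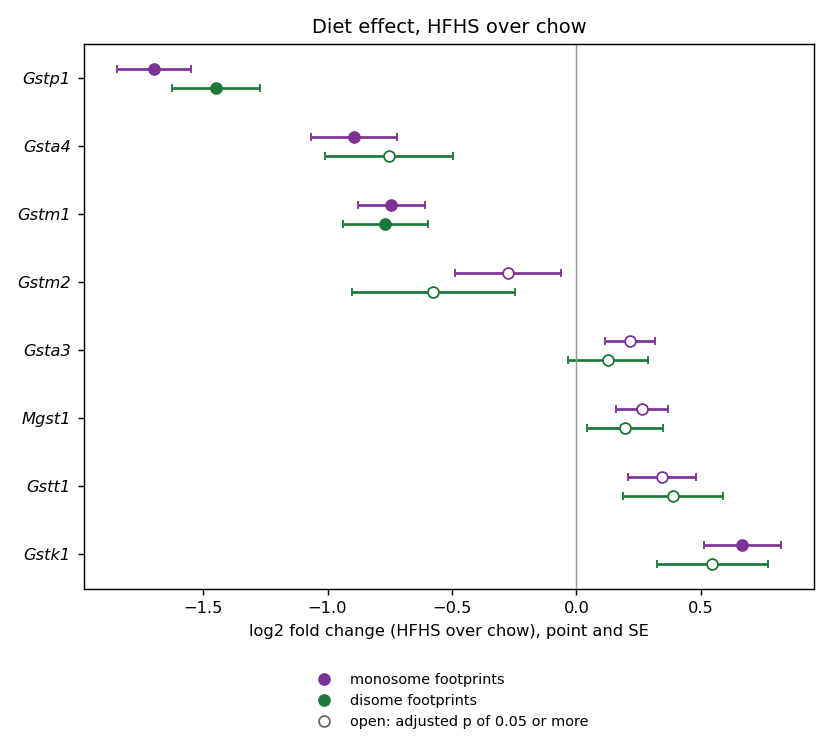
Log2 fold change of HFHS over chow (horizontal axis) for the 8 members tested, in monosome (purple) and disome (green) footprints; points are edgeR estimates, whiskers are SE, and open points have an adjusted p of 0.05 or more. Gstp1 lies lowest at -1.70 and -1.45, and Gstk1 highest at 0.67 and 0.55.

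Gsta2, an alpha-class gene known as an inducible transferase, was too low for the diet fits and is given by its counts. Monosome counts were 3, 1 and 0 in the HFHS libraries, against 6, 9 and 2 in the chow libraries. The count of 0 in GCATA allows a level of up to 2.00 CPM (3 counts). Disome counts were 1 and 1 in HFHS, against 5, 7 and 11 in chow. Summed over libraries and scaled to depth, the HFHS level was 0.129 times the chow level in disomes (2 against 23 counts, exact 95% interval 0.0147 to 0.522) and 0.175 times in monosomes (4 against 17 counts, 0.0428 to 0.536). These intervals cover counting error only and not the spread between samples. Gsta2 has a close copy, Gsta1, and no source used here says how reads shared between copies were counted. The same limit holds for Gstp1, which lies beside Gstp2 and Gstp3, and for the mu-class cluster with Gstm1, Gstm2, Gstm3 and Gstm4.

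Promoters of 4 genes are shown because Gstp1 and Gstm1 fell together, Gstk1 moved the other way and Mgst1 holds a match to the NRF2 element. Each run is the 250 bases before an annotated start, 5′ to 3′ on the gene's strand, from RefSeq (GRCm38.p6). The windows are chr19:4037913-4038162 on the minus strand, chr3:108017819-108018068 on the minus strand (the second of 2 starts listed), chr6:42245685-42245934 on the plus strand and chr6:138140277-138140526 on the plus strand (the first of 2 starts listed). Capitals mark matches, on either strand, to any of 4 motifs: the core of the antioxidant response element (TGACNNNGC), the AP-1 site (TGANTCA), the GC box (GGGCGG) and the TATA box (TATAAA). The first and second of these motifs can overlap.
Gstp1: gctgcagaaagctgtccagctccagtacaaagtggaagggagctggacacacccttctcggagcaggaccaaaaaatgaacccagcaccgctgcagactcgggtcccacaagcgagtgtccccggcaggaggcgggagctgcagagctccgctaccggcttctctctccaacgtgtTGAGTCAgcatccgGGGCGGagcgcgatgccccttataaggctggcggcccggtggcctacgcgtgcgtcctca
Gstm1: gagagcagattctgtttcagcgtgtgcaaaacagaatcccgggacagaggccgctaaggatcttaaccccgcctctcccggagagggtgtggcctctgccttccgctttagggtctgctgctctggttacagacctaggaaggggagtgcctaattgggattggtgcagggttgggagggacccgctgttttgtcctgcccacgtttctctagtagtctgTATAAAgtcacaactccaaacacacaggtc
Gstk1: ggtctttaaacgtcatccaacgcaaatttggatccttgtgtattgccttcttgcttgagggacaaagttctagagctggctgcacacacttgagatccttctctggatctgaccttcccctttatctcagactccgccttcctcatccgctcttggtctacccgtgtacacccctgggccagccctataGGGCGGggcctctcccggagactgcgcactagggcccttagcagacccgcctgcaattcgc
Mgst1: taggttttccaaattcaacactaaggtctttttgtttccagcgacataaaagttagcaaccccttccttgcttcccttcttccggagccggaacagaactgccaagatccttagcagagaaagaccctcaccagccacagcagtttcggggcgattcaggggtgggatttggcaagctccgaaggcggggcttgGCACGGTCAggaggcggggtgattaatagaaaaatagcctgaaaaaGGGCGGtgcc

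The Gstp1 window held an AP-1 match (TGAGTCA) beginning 74 bases before the start and a GC box beginning 60 bases before it. The Gstm1 window held a TATA box 30 bases before the start, and the Gstk1 window a GC box 61 bases before it. In Mgst1 the antioxidant response element core was read on the opposite strand, 56 bases before the start, and a GC box began 10 bases before it. Among the other members, Gsta3 held such a core (TGACATTGC) 121 bases before its start, and Gsta2 held a TATA box match near the far end of its window. Of 32851 promoter windows of this length, 10.2% held the antioxidant response element core, 6.75% the AP-1 site, 32.7% the GC box and 12.4% the TATA box. RefSeq promoters were matched by symbol for 8 of the 9 members, in 10 windows, and Gsta4 was not among them. A match describes letters only, and its absence says nothing about the factor.

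**Figure D3:**
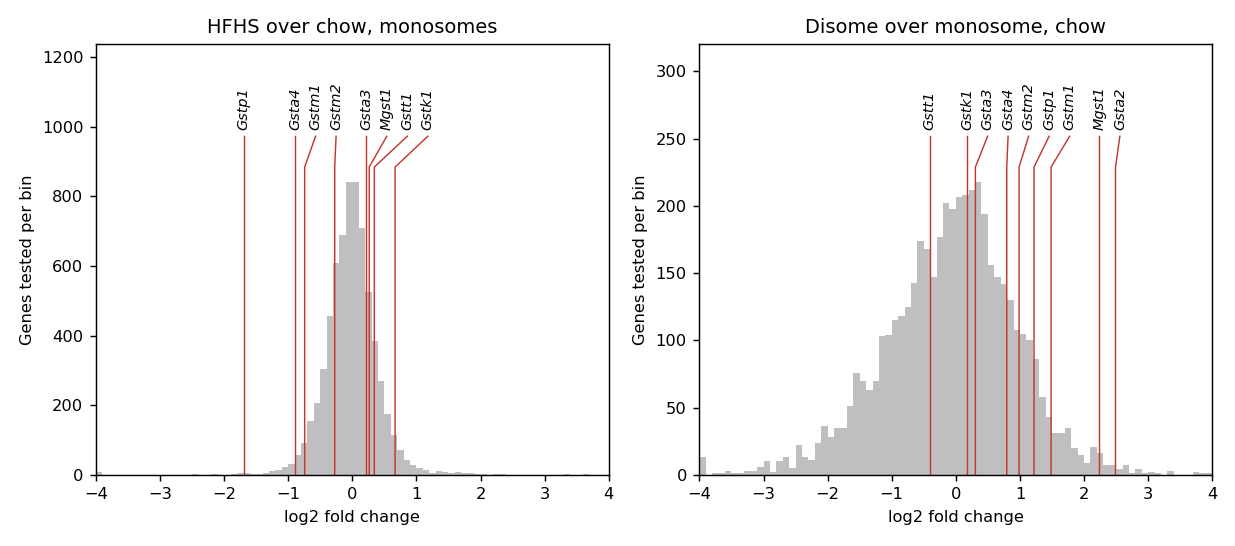
Number of genes tested per bin of log2 fold change (grey), for HFHS over chow in monosomes (left) and disome over monosome in chow livers (right), with the members marked in red; values beyond 4 in either direction are stacked in the end bins. Gstp1, at -1.70 on the left, lies outside the bulk of genes, and Mgst1 and Gsta2, at 2.24 and 2.49 on the right, lie in the upper tail. Gsta2 entered the right-hand fit only through its disome level, so its place there is a description.

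The next comparison set disome against monosome footprints within each diet, asking which transferases carried more queued ribosomes than their monosome level. Mgst1 had the highest ratio among the members with ample counts, with Gstm1 and Gstp1 next, and Gstt1 had the lowest. In chow livers 6 of 8 members were called higher in disomes and 1 lower, leaving out Gsta2, where 44.9% of 4713 genes tested were called, 21.6% higher and 23.3% lower. Gsta2 passed the filter of this fit only through its disome level, where it is high, so its ratio is given as a description. In HFHS livers 3 of 8 members were called higher (Gsta4, Gstm1 and Mgst1) and 0 lower, where 25.1% of 7437 genes were called, 11.5% higher and 13.6% lower. The median log2 ratio of the 8 members without Gsta2 was 0.82 in HFHS and 0.89 in chow, beside -0.07 and -0.01 over all genes tested. The ratio is relative to the average gene. Disome and monosome libraries carry different prefixes in their column names (PD49 and PF43), so any batch that these mark and footprint class cannot be told apart.

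Mgst1 stood at 19436.5 and 19807 CPM in disomes and 4361, 4966 and 3651 CPM in monosomes of HFHS livers. In chow livers it stood at 16675, 16868 and 15270.3 CPM in disomes and at 3486, 3686 and 3739 CPM in monosomes. Every disome library lay far above every monosome library on both diets. The log2 ratio was 2.19 ± 0.12 in HFHS (adjusted p = 2.38e-14) and 2.24 ± 0.11 in chow (adjusted p = 2.08e-19), or 4.56-fold and 4.72-fold. Within a barcode, disome over monosome was 4.46 and 5.42 in HFHS livers (CTAGA and GCATA) and 4.78, 4.58 and 4.08 in chow livers. Of all genes tested, 98.6% had a lower log2 ratio in HFHS and 98.9% in chow.

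Gstm1 came next in chow, and after Gstp1 in HFHS by a difference far below either SE, with a log2 ratio of 1.48 ± 0.14 in HFHS (adjusted p = 1.65e-09) and 1.49 ± 0.13 in chow (adjusted p = 9.45e-12). Its disome over monosome ratio within a barcode was 2.57 and 3.23 in HFHS and 2.75, 2.50 and 2.78 in chow. These values overlapped between the diets, although both footprint classes had fallen in HFHS. For Gstp1 the log2 ratio was 1.49 ± 0.38 in HFHS, just short of the threshold (adjusted p = 0.0525), and 1.22 ± 0.13 in chow (adjusted p = 4.82e-10). The HFHS ratio of Gstp1 passed the threshold in each of 11 alternative analyses (adjusted p up to 0.0451), and it was 0.90 without the disome library GCATA and 1.87 without CTAGA. Both of the last-named fits hold 1 HFHS disome library, and their spread comes from the monosome libraries alone.

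Gsta4 and Gstm2 had ratios between those of Gstp1 and Gsta3. Gsta4 had a log2 ratio of 0.95 ± 0.25 in HFHS (adjusted p = 0.00626) and 0.79 ± 0.20 in chow (adjusted p = 0.00106). In HFHS the log2 ratio was 0.69 without the disome library GCATA (adjusted p = 0.187), a fit that holds 1 disome library against 3 monosome libraries. In chow it was 0.49 without the disome library ATCGT (adjusted p = 0.0860). Gstm2 had 0.70 ± 0.31 in HFHS (adjusted p = 0.102) and 0.99 ± 0.26 in chow (adjusted p = 0.00221), and the chow call was lost without the disome library ATCGT (0.68, adjusted p = 0.0669). The HFHS value of Gstm2 was 0.15 without the disome library CTAGA and 1.06 without GCATA, each with 1 disome library left, and it was called with the barcode as a block (0.82, adjusted p = 0.0321). Its disome and monosome values overlapped in both diets. Gsta2, on 23 disome and 17 monosome counts, had a fitted log2 ratio of 2.49 ± 0.44 in chow, given with no test. Without both AGCTA libraries the chow log2 ratio was 2.12 for Mgst1, 1.39 for Gstm1, 1.27 for Gstp1, 0.84 for Gstm2 and 0.71 for Gsta4, with adjusted p from 3.90e-17 to 0.0295, while Gsta3 was no longer called (0.27, adjusted p = 0.212).

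Gsta3, Gstk1 and Gstt1 lay near the average gene. Gsta3 had a log2 ratio of 0.23 ± 0.12 in HFHS (adjusted p = 0.166) and 0.30 ± 0.12 in chow (adjusted p = 0.0323), and the chow call was lost in 9 of 13 alternatives, with adjusted p up to 0.491. Gstt1 was the member with fewer disomes than its monosome level, at -0.34 ± 0.16 in HFHS (adjusted p = 0.113) and -0.41 ± 0.16 in chow (adjusted p = 0.0343). Its chow call was lost without the monosome library AGCTA (adjusted p = 0.129), without the disome library CGTAA (adjusted p = 0.213), without both AGCTA libraries (adjusted p = 0.0793) and in DESeq2 (adjusted p = 0.0945). Gstk1 had 0.07 ± 0.19 in HFHS (adjusted p = 0.822) and 0.18 ± 0.19 in chow (adjusted p = 0.472). Differences in ratio between members were not tested.

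**Figure D4:**
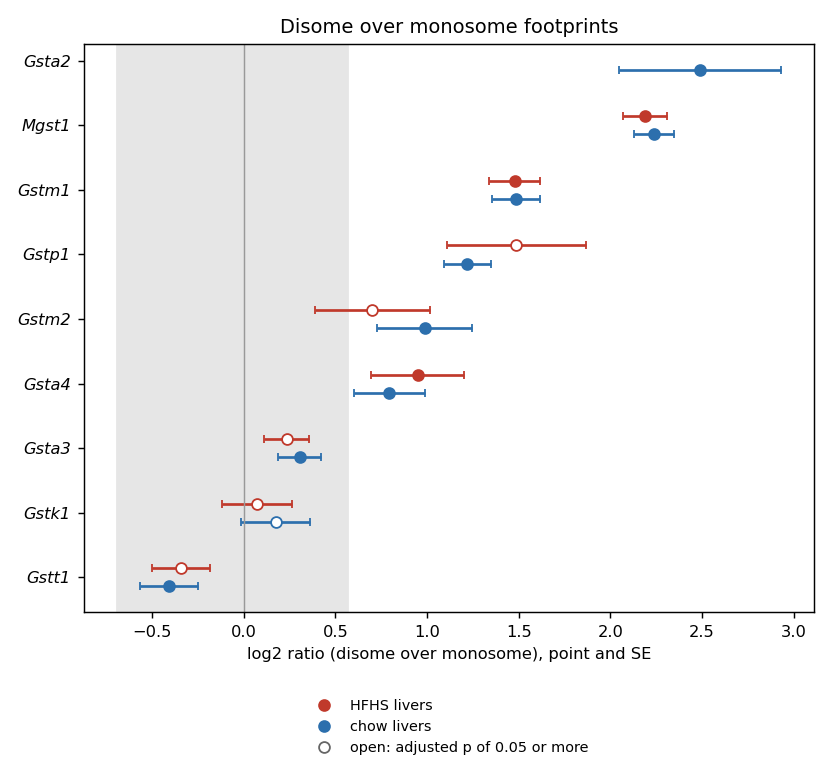
Log2 ratio of disome over monosome footprints (horizontal axis) of the 9 members in HFHS (red) and chow (blue) livers; points are edgeR estimates, whiskers are SE, open points have an adjusted p of 0.05 or more, and the grey band holds the middle 50% of all genes tested in chow. Mgst1, Gstm1, Gstp1, Gsta4, Gstm2 and, in chow, Gsta2 (which entered through its disome level) lie above the band, and Gsta3, Gstk1 and Gstt1 lie within it. The filled point of Gsta2 is given as a description and not as a test.

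The unequal ratios gave the family a different make-up in the footprint classes. The 9 genes together took 2.92% ± 0.031 of counts in HFHS disomes (SD, n = 2) and 3.01% ± 0.067 in chow disomes (n = 3), and 0.979% ± 0.095 in HFHS monosomes and 1.03% ± 0.036 in chow monosomes (n = 3 each). Mgst1 accounted for 68.4% ± 1.3 of the family's disome counts in HFHS and 57.3% ± 2.3 in chow. In monosomes Mgst1 accounted for 41.1% ± 2.3 in HFHS and 33.3% ± 0.91 in chow. Gstp1 accounted for 5.40% ± 2.3 of the family's disome counts in HFHS and 14.2% ± 2.5 in chow, and for 5.44% ± 2.1 of its monosome counts in HFHS and 16.7% ± 0.82 in chow. The total share of the 9 genes in disome counts ran from 2.89% to 2.94% in HFHS and from 2.95% to 3.08% in chow, close but without overlap, and in monosomes it ran from 0.872% to 1.05% in HFHS and from 1.01% to 1.07% in chow, with overlap.

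The last comparison tested whether the diet effect on disomes differed from that on monosomes, that is, whether queueing on a transferase changed with diet beyond its monosome level. Leaving out Gsta2, none of the 8 members tested was called, and 0% of 7236 genes were called. There were 358 genes (4.95%) at an unadjusted p below 0.05 in edgeR and 196 in DESeq2, which called 0 as well. The difference of diet effects (disome minus monosome, log2) was 0.34 ± 0.42 for Gstp1, with an approximate 95% interval of -0.49 to 1.17. It was 0.06 ± 0.19 for Gstm1 (-0.32 to 0.44), 0.02 ± 0.14 for Mgst1 (-0.26 to 0.30) and -0.0015 for Gsta3 (-0.32 to 0.32). For Gsta4 it was 0.22 ± 0.32, for Gstm2 -0.24 ± 0.41, for Gstt1 0.13 ± 0.24 and for Gstk1 -0.05 ± 0.27. Gsta2, on few counts, passed the filter of this fit only through its chow disome level, where it is high. Its value of -0.57 ± 1.90 is given as a description. The adjusted p was 0.99995 for each of the other members. The intervals of Gstp1 and Gsta2 are wide, and a p above the threshold does not show that the diet effects were equal.

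Across the 6 monosome libraries, likeness between members was described by Pearson correlation of log2(CPM + 1), which is largely set by the split between diets and is given with no test. Gsta4 and Gstm1 were each other's nearest member (r = 0.94), and Gsta4 was also nearest to Gstp1 (r = 0.85). Gstk1 and Mgst1 were each other's nearest (r = 0.81), and Gstp1 and Gstk1 ran most against each other (r = -0.93). Among 2200 genes with a mean of at least 50 CPM, the gene nearest to Gstp1 was ENSMUSG00000029657 (r = 0.99) and the gene nearest to Mgst1 was ENSMUSG00000040813 (r = 0.99), neither of which the files name. Every member had a nearest gene this close or nearly so, from r = 0.96 for Gstm2 to r = 0.996 for Gstk1. Even Gsta2, on few counts, had one at r = 0.99, so such values do not mark a particular pair.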

How the data were processed

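Frozen liver (200 mg) was digested with RNase I and footprints of 30 or 60 nt were cut from a gel loaded with 10 µg of RNA, per the labels' protocols, with adaptors that carried a sample barcode and a molecular identifier of 8 nt. Trimming and alignment tools are cutadapt 3.5 and Bowtie2, per the submitters' processing notes. No source used here gives the genome build, annotation, strand, use of the identifiers or treatment of shared reads. The authors deposited raw counts of footprints per gene, not normalized, for 22019 genes in 11 columns; 8319 genes were 0 in all. Column names give class, diet (HFD, the labels' HFHS) and barcode but no replicate number, so columns were assigned to groups only. Whether samples came from separate animals is not stated in the labels, so a p-value speaks only of the spread between the samples, which may be technical.

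Tests used edgeR 4.0.16 (R 4.3.3) with its filter at a minimum count of 10, TMM scaling and robust quasi-likelihood F-tests, two-sided, on the groups compared, or on all 11 libraries for the difference of diet effects, over 5 comparisons. SE is the log2 fold change divided by the square root of F, and approximate 95% intervals are 1.96 SE either way. The fit was also run on simulated counts with seeded fold changes, drawn from a single profile with a fixed spread, unlike these data. The outcome is not reported here. Alternatives were DESeq2 1.42.0, RLE normalization, no filter, a minimum count of 50, no robust estimation, 1 fit of all libraries, the barcode as a block, and libraries left out. The Gsta2 intervals are exact binomial intervals on summed counts, and 3 counts were taken as the limit of a count of 0. Members, lists and motifs were chosen with earlier results of these data known; all 9 members are named by rule, with names from the list of identifiers that defined them. Of the RefSeq gene table's 49997 genes (GRCm38.p6), 0 carried an Ensembl identifier, so 3 lists of other glutathione genes and the cell type markers were not analysed here. That table was used only for symbols and neighbours.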

Additional observations from a re-analysis of the deposited data

How the results depend on the processing

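No paired analysis was possible because the columns carry no replicate number, as far as the labels' numbers go, so the barcode that disome and monosome libraries share was used as the block. Deviations from group means correlated between disome and monosome libraries of 1 barcode at 0.09 and 0.29 in HFHS and at 0.86, 0.69 and 0.68 in chow. Between ATCGT and CGTAA in chow, which do not share a barcode, the values were 0.55 and 0.54. Deviations in chow were from means that include the AGCTA libraries, which stood apart. These values do not settle the pairing in chow or in HFHS. In chow the block called 7 members higher and 1 lower, as the main fit did, with Gsta2, which entered through its disome level, among the 7. Over all 4713 genes tested there, it called 1145 higher and 1191 lower. With the barcode as a block, 6 members were higher in disomes in HFHS (Gsta3 with adjusted p = 0.0198, Gstm2 with 0.0321 and Gstp1 in addition). Of all 7437 genes tested there, 945 were higher and 1089 lower. For the difference of diet effects, 7 genes, none of them a member, had a lower diet effect in disomes. The calls of Gstp1, Gstm1 and Gsta4 in monosomes, and of Mgst1, Gstm1 and Gstp1 (chow only) for the ratio, kept their direction and side of the threshold in every alternative run.

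With 1 member lower in place of 2, the fit of all 11 libraries changed the disome diet result, and it called 21 of 7236 genes lower. A minimum count of 50 left 4 members higher in chow disomes. Gsta2 and Gstm2 were not tested there, and Gsta3 was no longer called (edgeR, adjusted p = 0.0644). Of the 1436 genes tested there, 412 were higher and 486 lower, and 125 of 2512 were higher for diet in monosomes. In chow, 0 members were lower in disomes with DESeq2, where 828 of 4713 genes tested were lower. Without both AGCTA libraries 0 members were lower as well, where 1015 of 5527 genes were lower. In HFHS 1 member was lower without the filter (Gstt1), where 1218 of 13019 genes were lower. Over all genes, DESeq2 called 56 lower for diet in monosomes, 16 higher and 10 lower in disomes, and 611 lower for the HFHS ratio; the unfiltered fit called 21 lower in disomes; without AGCTA 131 were higher in monosomes and 25 in disomes. The causes of these shifts were not tested. The unfiltered fit gave Gsta2 a diet log2 fold change of -2.36 in monosomes (adjusted p = 0.0506) and -2.79 in disomes (adjusted p = 0.111). Differences of diet effects that turned sign were all uncalled: with the barcode block Gsta3 was 0.035 and Gstk1 0.072, and Mgst1 was -0.014 without the filter and -0.017 at a minimum count of 50. The HFHS ratio of Gstk1 was -0.069 without the filter.

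Leaving out an HFHS disome library leaves 1 in that group, which is assumed to vary like the other libraries of the fit. The counts of members higher for the chow ratio include Gsta2 wherever it passed the filter. Over all genes, 717 to 998 were higher and 818 to 1169 lower for the chow ratio with 1 library left out. The number tested there differed between fits, from 3279 to 6494. Leaving out 1 library at a time, members higher numbered 0 to 2 for diet in monosomes and 4 to 7 for the ratio in chow. Members lower numbered 0 to 1 for the chow ratio. For the HFHS ratio with a monosome library left out, Gsta4, Gstm1, Gstp1 and Mgst1 were called higher each time, and Gstt1 was not called. Over all genes, 85 to 203 were higher and 57 to 117 lower for diet in monosomes, 20 to 32 and 18 to 26 in disomes, and 425 to 825 and 555 to 861 for the HFHS ratio. The difference of diet effects ran from -0.11 to 0.046 for Gsta3, -0.042 to 0.48 for Gsta4, -0.12 to 0.13 for Gstm1 and -0.79 to 0.12 for Gstm2. It ran from -0.25 to 0.73 for Gstp1, -0.11 to 0.30 for Gstt1, -0.25 to 0.10 for Gstk1 and -0.12 to 0.087 for Mgst1. None of these was called. For Gsta2 it ran from -1.21 to 0.48, given as a description. The HFHS ratio of Gstk1 ran from -0.14 to 0.21. CPM of raw totals moved 6 of 36 group levels by more than 1 SD, such as Mgst1 in chow disomes (17264 CPM).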
